A study of Homo sapiens with 14 samples.

Results

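Mitochondrial ribosomal protein genes are the nuclear genes that encode the proteins of the mitochondrial ribosome. They were taken as all protein-coding genes whose GENCODE symbol is MRPS or MRPL followed by a number and at most 1 letter. The rule found 78 genes among 60876, spread over 21 chromosomes, and all 78 passed the filter on low counts among the 15426 genes tested. Of the 78, 51 encode proteins of the large subunit and 26 proteins of the small subunit, with MRPS18A and MRPS30 counted in the large subunit, where their proteins sit. MRPS36 was put in neither, since its protein, also called KGD4, is known as a component of the oxoglutarate dehydrogenase complex.

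The libraries came from MDA-MB-231, an established human breast cancer cell line with a mesenchymal-like profile. There were 7 groups of 2 replicates: a control, RBI2 at 5 µM for 10, 30 or 120 min, and CX-5461 at 5 µM for 10, 30 or 120 min. CX-5461 inhibits RNA polymerase I, which transcribes ribosomal DNA, and RBI2 is a compound found in a screen for inhibitors of ribosome synthesis. The study asked how the transcriptome responds to each compound over time. No other agent or genetic change is given for any group, and the control is called untreated in the methods and DMSO-treated in the results. The times are those of the sample labels. The deposited files carry other time tokens than the labels in their names, so each statement on time holds for the label. The labels do not say that replicates came from separate cultures, so the p-values measure only the spread between these samples.

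The mitochondrial ribosome translates the few mRNAs of the mitochondrial genome, all of them for subunits of the respiratory chain and ATP synthase. Its ribosomal RNAs are transcribed inside the organelle, whereas its proteins are transcribed by RNA polymerase II in the nucleus, translated in the cytosol and imported. Part of the proteins have bacterial homologues and the others were added in the mitochondrial lineage.

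Library totals ran from 14112299 to 24849354 estimated reads, with a median of 16305236, and a member had at least 142 reads in every library. VIM (2810 to 3360 CPM, reads scaled to the effective size of each library), CD44 and MSN were high in every library. ESR1, PGR and CDH1 were at most 0.298 CPM, as were the markers PTPRC and CD3E of leukocytes. KRT18 (398 to 573 CPM) and EGFR (119 to 247 CPM), listed as present in this line, were found in every library. ERBB2 (51.1 to 78.7 CPM) and EPCAM (9.19 to 14.2 CPM), both listed as low in this line, and CD68 (62.5 to 93.1 CPM), a marker of macrophages, were present. Control replicate 2 stood apart. Genes of the mitochondrial genome took 20.6% of its reads, against 8.14% to 11.3% in the other 13 libraries, and 1461 genes were over 2-fold apart between the control replicates, against 459 to 640 in the other groups.

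The median log2 fold change of the mitochondrial ribosomal protein genes lay between -0.15 and 0.18 in all 10 comparisons that have a direction. No member passed an adjusted p under 0.05 together with a log2 fold change of 1 or more in size in any of the 9 comparisons between groups or in the comparison over all times (quasi-likelihood test of edgeR, adjusted by Benjamini-Hochberg). Of all genes tested, 0.0843%, 0.0389% and 1.84% passed both limits for RBI2 against the control at 10, 30 and 120 min, and 1.67%, 0% and 0.0454% for CX-5461. Between the compounds the shares were 1.05%, 0.013% and 1.78% at the same times and 0.965% over all times. DESeq2 also called 0 members under both limits, and 0 members passed the fold limit with an unadjusted p under 0.05. Without control replicate 1, 1 member passed both limits for RBI2 at 30 min, 2 for CX-5461 at 10 min and 3 for CX-5461 at 30 min against the control, where 6.59%, 8.33% and 7.03% of all genes did. With the adjusted p alone, 4 members were lower after RBI2 for 120 min, against the control, against CX-5461 or against both, and none was called higher, where 18.3% of all genes were called against the control and 16.1% against CX-5461. They were MRPL35, MRPL19, MRPL3 and MRPS35. The 95% intervals of all 78 members lay within a log2 fold change of 1 of no change in 6 of the 9 comparisons between groups, and of 74 members in the comparison that had the fewest, CX-5461 at 30 min against the control.

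**Figure D1:**
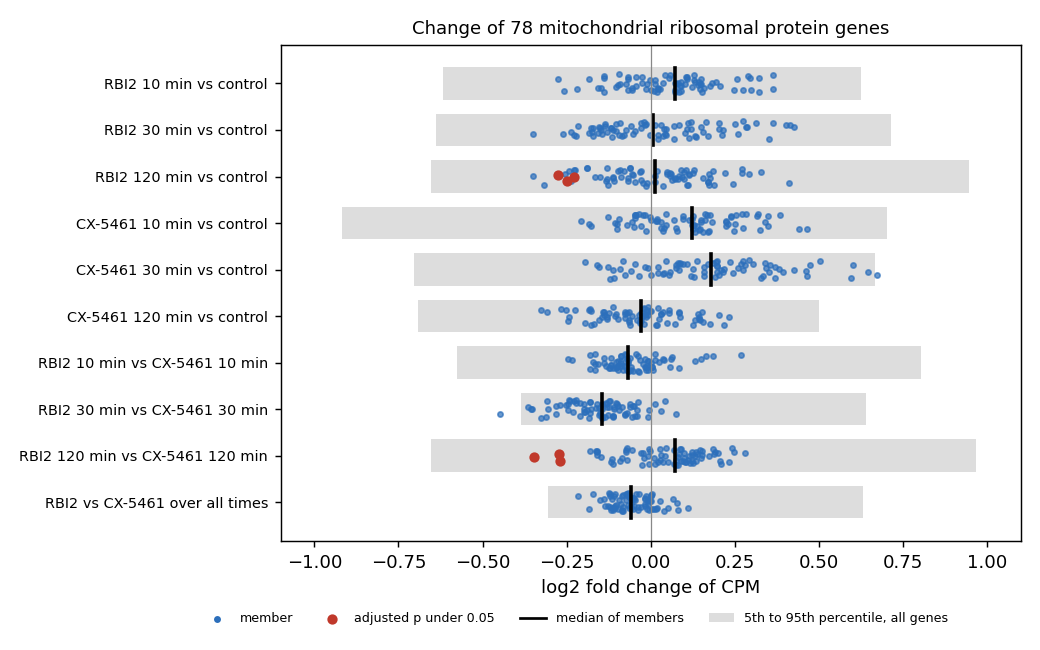
The log2 fold change of each of the 78 members (points, jittered vertically) is plotted for 10 comparisons, with the members' median (black line) and the range from the 5th to the 95th percentile of all genes tested (grey bar). Red points passed an adjusted p under 0.05, which held for 3 members in RBI2 120 min against the control and 3 in RBI2 120 min against CX-5461 120 min.

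By edgeR with all libraries and the filter on low counts, members were called against the control after RBI2 for 120 min and in no other group, whereas other settings also called members in other groups. With the adjusted p alone, 3 of 78 members were lower than in the control and 0 higher, a share of 3.85%, where 18.3% of all genes tested were called and 8.87% were called lower. MRPL35, a large-subunit protein with a bacterial homologue, was at 100.1 and 96.8 CPM in the control libraries and at 85.3 and 80.5 CPM after RBI2 for 120 min. In the other RBI2 libraries it was at 100.7 and 98.8 CPM (10 min) and 93.3 and 88.4 CPM (30 min), and in the 6 CX-5461 libraries it ran from 94.0 to 101.4 CPM. Both libraries of RBI2 at 120 min were below all 12 other libraries. MRPL35 fell by 0.25 on the log2 scale against the control (SE 0.066, adjusted p = 0.029 by edgeR's quasi-likelihood test).

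MRPL19, also of the large subunit and with a bacterial homologue at the interface to the small subunit, was at 99.8 and 110.2 CPM in the control libraries and at 86.2 and 87.1 CPM after RBI2 for 120 min. It was at 104.7 and 116.0 CPM after CX-5461 for 120 min, and the other 8 libraries lay between 92.3 and 103.4 CPM. Here too both libraries of RBI2 at 120 min were the lowest of the 14. The fall against the control was 0.28 on the log2 scale, written as a log2 fold change of -0.28 (SE 0.080, adjusted p = 0.038 by edgeR's quasi-likelihood test). MRPL3, a large-subunit protein related to bacterial L3, which lies near the peptidyl transferase centre, was at 153.4 and 161.9 CPM in the control. It was at 134.0 and 133.5 CPM after RBI2 for 30 min and at 132.5 and 136.7 CPM after RBI2 for 120 min, while the 8 remaining libraries ran from 148.3 to 158.5 CPM. The 4 libraries of RBI2 at 30 and 120 min were thus the lowest, and those of the 2 times overlapped. MRPL3 fell by 0.23 at 120 min (SE 0.063, adjusted p = 0.033 by edgeR's quasi-likelihood test), and at 30 min DESeq2 called it (log2 fold change -0.25, adjusted p = 0.0093) and edgeR did not.

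The direct comparison of the compounds at 120 min asks whether RBI2 and CX-5461 differ at the same dose and labelled time. The control libraries enter it through the shared scaling, filter and spread. It called 3 of 78 members lower after RBI2 and 0 higher by the adjusted p alone, against 16.1% of all genes tested called and 9.32% called lower. MRPL19 was lower by 0.35 (log2 fold change -0.35, SE 0.079, adjusted p = 0.018) and MRPL35 by 0.27 (log2 fold change -0.27, SE 0.065, adjusted p = 0.021), both by edgeR's quasi-likelihood test. The remaining call was MRPS35, a small-subunit protein without a bacterial homologue. It was at 64.3 and 57.6 CPM after RBI2 for 120 min and at 75.8 and 71.5 CPM after CX-5461 for 120 min, and the 10 other libraries ran from 66.6 to 78.3 CPM. Again the libraries of RBI2 at 120 min were the lowest, with a log2 fold change of -0.27 against CX-5461 (SE 0.076, adjusted p = 0.037 by edgeR's quasi-likelihood test). Both sets of 3 share MRPL19 and MRPL35, and they share the RBI2 libraries, so the overlap is no independent repeat.

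**Figure D2:**
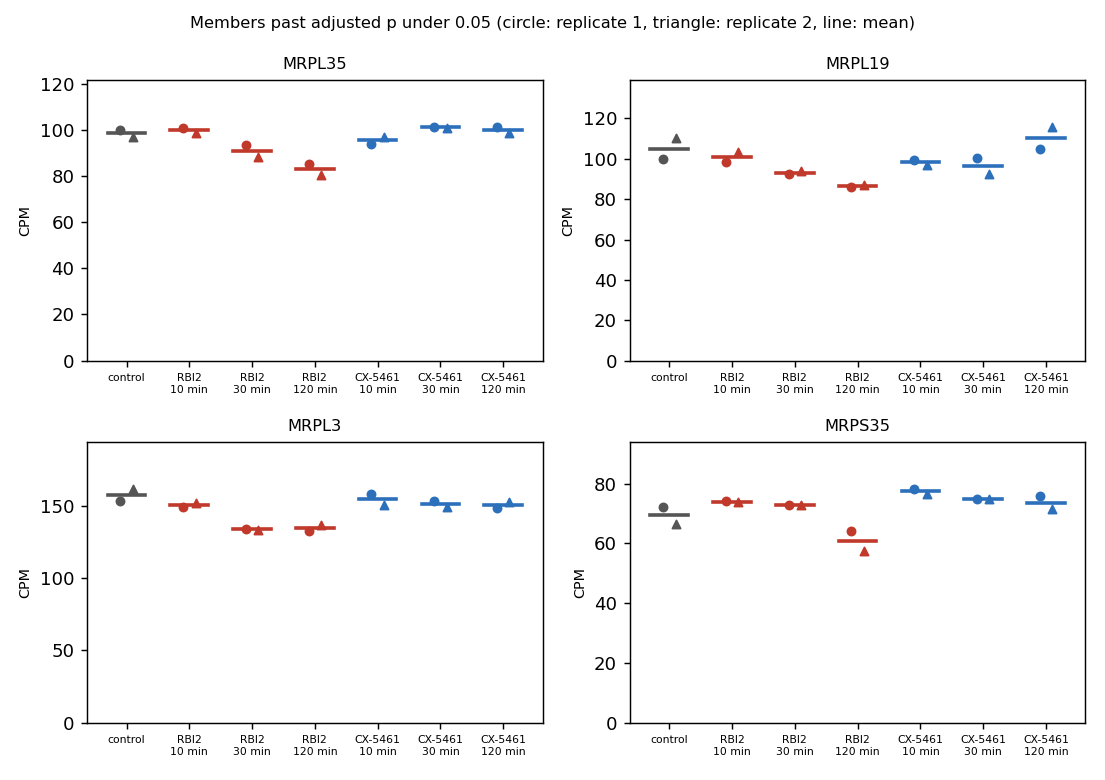
CPM of MRPL35, MRPL19, MRPL3 and MRPS35 in each of the 14 libraries is plotted by group, with replicate 1 as a circle, replicate 2 as a triangle and the group mean as a line, on an axis that starts at 0. Both libraries of RBI2 120 min are the lowest of the 14 for MRPL35, MRPL19 and MRPS35, and the fall is a small part of the level in each panel.

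All 4 genes had a low GC content, 39.9% to 43.4% over their transcripts, where the 78 members ran from 35.0% to 66.7%. With the values of each library corrected for GC content and length, 0 of the 3 remained called against the control (log2 fold change -0.05 and adjusted p = 0.64 for MRPL19, -0.13 and 0.12 for MRPL3, and -0.18 and 0.082 for MRPL35 by edgeR's quasi-likelihood test), and MRPL17 (log2 fold change -0.34, adjusted p = 0.031) and MRPL42 (0.27, adjusted p = 0.029) were called in their place. Against CX-5461 at 120 min, MRPL35 remained called with that correction (log2 fold change -0.28, adjusted p = 0.011) and MRPL19 (-0.16, adjusted p = 0.067) and MRPS35 (-0.17, adjusted p = 0.196) did not, and MRPS27 was called (-0.21, adjusted p = 0.022), all by edgeR's quasi-likelihood test. Over all 24 alternatives, MRPL35 was called against CX-5461 in 20, MRPL19 in 18 and MRPS35 in 11. Against the control, MRPL35 was called in 15, and MRPL19 and MRPL3 in 10 each. No alternative turned the sign of these 6 differences. MRPS35 was called against the control in 0 of the 24 alternatives, and MRPL3 against CX-5461 at 120 min in 3. MRPL17, MRPL42 and MRPS27 were chosen after their values were seen. Without either RBI2 120 min library, 0 members were called in both comparisons. Against the control, 31 members (of all genes, 43.1%) were called without control replicate 1, 1 (8.27%) without control replicate 2, 1 without any 1 of the RBI2 libraries at 10 or 30 min (9.8% to 12.5%), and 0 without either CX-5461 10 min library (11.4% and 11.5%). Against CX-5461, 9 members (of all genes, 27.8%) were called without control replicate 1, 7 (27.9%) without control replicate 2 and 0 (0.414%) without CX-5461 120 min replicate 2. Without either RBI2 120 min library the shares of all genes were 0.448% and 1.5% against the control and 0.187% and 0.124% against CX-5461.

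The positions of the called genes, and the promoter sequences of 3 of them, are given on GRCh38. MRPL35 (ENSG00000132313.15) lies on the plus strand at chr2:86199355-86213790, MRPL19 (ENSG00000115364.14) on the plus strand at chr2:75646783-75690851, MRPL3 (ENSG00000114686.9) on the minus strand at chr3:131462212-131502983 and MRPS35 (ENSG00000061794.13) on the plus strand at chr12:27710822-27756295. Of the 4 called genes, MRPL19, MRPL3 and MRPS35 matched an entry in the RefSeq promoter table, and they are shown because they hold letters of motifs known from the promoters of genes for mitochondrial proteins, which part of the members have. The sequences run from 250 bases before to 50 bases after the gene's start in RefSeq on GRCh38.p14, which for MRPL3 and MRPS35 is not the start of the GENCODE gene given above, and have motif matches in capitals. The windows are chr2:75646533-75646832 on the plus strand, chr3:131502922-131503221 on the minus strand and chr12:27710582-27710881 on the plus strand.
MRPL19: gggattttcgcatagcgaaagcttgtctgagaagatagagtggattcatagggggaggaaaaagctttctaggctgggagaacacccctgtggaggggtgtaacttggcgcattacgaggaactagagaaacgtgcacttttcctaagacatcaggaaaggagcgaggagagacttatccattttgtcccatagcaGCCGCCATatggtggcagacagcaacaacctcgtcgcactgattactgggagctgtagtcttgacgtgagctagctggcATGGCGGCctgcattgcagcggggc
MRPL3: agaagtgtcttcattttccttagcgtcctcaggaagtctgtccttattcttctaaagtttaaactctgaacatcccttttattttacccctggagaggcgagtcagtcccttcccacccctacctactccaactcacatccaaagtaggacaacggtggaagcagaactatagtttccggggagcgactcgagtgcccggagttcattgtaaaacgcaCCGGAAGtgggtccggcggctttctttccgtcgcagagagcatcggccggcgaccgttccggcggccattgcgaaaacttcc
MRPS35: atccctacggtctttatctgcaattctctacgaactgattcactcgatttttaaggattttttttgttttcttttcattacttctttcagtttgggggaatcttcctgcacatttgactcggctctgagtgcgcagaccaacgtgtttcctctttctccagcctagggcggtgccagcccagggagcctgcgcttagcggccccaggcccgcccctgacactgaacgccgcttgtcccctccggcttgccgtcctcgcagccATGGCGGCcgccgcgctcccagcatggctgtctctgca

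Capitals mark CCGGAAG, the core letters bound by ETS factors such as GABPA, in MRPL3, and ATGGCGGC, letters of the YY1 motif, in MRPL19 (once on each strand) and MRPS35. These 2 and the NRF1 motif were searched on both strands in the windows of the 70 members that had an entry. CCGGAAG was found in 42.9% of the member windows and in 12.2% of all 27305 windows, ATGGCGGC in 27.1% and 3.67%, and the NRF1 motif in 12.9% and 6.98%. The 27305 windows were not limited to genes that passed the filter on low counts, as the members did. These shares thus do not compare the members with other expressed genes. The letters of ATGGCGGC also spell a start codon followed by alanine codons, so a match near the end of a window can be coding sequence. The windows shown do not all share 1 of these motifs, and a match is a description of letters and not a bound site.

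The largest collective shift between the compounds was at 30 min. There 74 of 78 members had a log2 fold change below 0 for RBI2 against CX-5461, with a median of -0.15, while the median of all genes tested was -0.01. In 49 of 78 members (62.8%) both RBI2 libraries were below both CX-5461 libraries, against 19.8% of all genes tested. None of them passed the adjusted p, and 2 of all genes did (0.013%). At an unadjusted p under 0.05, edgeR gave 14 members, all lower after RBI2, where 2.58% of all genes passed lower and 7.7% in either direction. DESeq2 called 0 members by its adjusted p. The members at the ends were MRPL14 (log2 fold change -0.45, SE 0.22, adjusted p = 0.68 by edgeR's quasi-likelihood test) and MRPL55 (-0.36, SE 0.21), both of the large subunit, and on the other side MRPL42 (0.08) and MRPS22 (0.04). With 1 library left out, MRPL55 ran from -0.49 to -0.24, MRPL42 from 0.04 to 0.12 and MRPS22 from -0.08 to 0.16. MRPL14 was at 60.6 and 61.0 CPM after RBI2 for 30 min and at 78.4 and 87.4 CPM after CX-5461 for 30 min, so the libraries did not overlap.

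The CX-5461 libraries at 30 min differed from each other by a similar amount. The members' median log2 difference between its replicates was -0.18, with replicate 2 higher, against 0.15 and 0.06 between the CX-5461 replicates at 120 and 10 min and 0.02, 0.00 and 0.02 between the RBI2 replicates at 10, 30 and 120 min. The median of the comparison at 30 min was -0.25 without CX-5461 replicate 1 and -0.07 without replicate 2. Cytosolic ribosomal protein genes, the nuclear genes for the proteins of the other ribosome, had a median of -0.26 over 82 genes in this comparison, with 0 called by the adjusted p. The part of this library difference in the result was not tested.

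Over all times, with 6 libraries of each compound and the labelled time as an additive term, 63 of 78 members lay below 0, with a median log2 fold change of -0.06 for RBI2 against CX-5461 and 0.00 for all genes tested. The adjusted p called 0 members with edgeR, against 8.76% of all genes, and 12 passed an unadjusted p under 0.05 (11 lower, 1 higher), against 27.2% of all genes. DESeq2 called 2 (against 12.3% of all genes), MRPL3 and MRPL13, both lower. MRPL55 (-0.21, SE 0.077, adjusted p = 0.099 by edgeR's quasi-likelihood test) and MRPL14 (-0.18, SE 0.073) had the lowest values, and MRPS16 (0.11, SE 0.045) and MRPS5 (0.08, SE 0.065), both related to bacterial small-subunit proteins, the highest. With 1 library left out, MRPS16 ran from 0.07 to 0.13 and MRPS5 from 0.03 to 0.11. With the GC and length correction, 24 members were called, 23 of them lower after RBI2, with log2 fold changes of at most 0.25 in size. They included MRPL13 (-0.22, adjusted p = 0.0047), MRPL55 (-0.25, adjusted p = 0.0052) and MRPL3 (-0.14, adjusted p = 0.0058), and the exception was MRPL42 (0.12, adjusted p = 0.046), all by edgeR's quasi-likelihood test. The same correction raised the calls over all genes from 1353 to 3259. At 10 min the direct comparison had a median of -0.07, with 60 of 78 members below 0, and called 0 members by the adjusted p with either tool (3.27% of all genes by edgeR). At an unadjusted p under 0.05 edgeR gave 0 members there, against 14.3% of all genes. The lowest were MRPL55 (-0.25) and MRPL33 (-0.24), and the highest MRPL46 (0.27) and MRPS16 (0.18). With 1 library left out, MRPL46 ran from 0.11 to 0.44 there. At 120 min the direction of the median was the other way (0.07, with 51 of 78 above 0, against 0.06 for all genes). It ran from -0.0171 (without CX-5461 120 min replicate 2) to 0.0671 with 1 library left out. With the GC and length correction it was -0.08. MRPS5 (0.28) and MRPL53 (0.25) were the highest. MRPL53 was at -0.03 with that correction and ran from 0.15 to 0.28 with 1 library left out. There 6 members passed an unadjusted p under 0.05, against 31.4% of all genes.

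**Figure D3:**
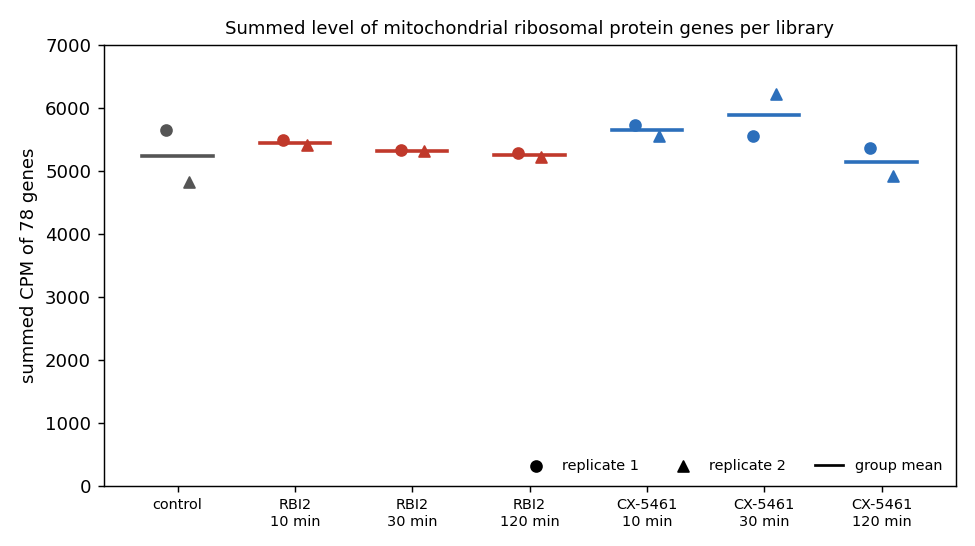
The summed CPM of the 78 members is plotted for each library, with replicate 1 as a circle, replicate 2 as a triangle and the group mean as a line, on an axis that starts at 0. The group means run from 5140 to 5890 CPM, and the control replicates (a ratio of 1.17) are further apart than the highest and the lowest group mean (1.15).

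The summed level of the members gives the same small range. In the control libraries it was 5644 and 4822 CPM, a mean of 5233 ± 581 (SD, n = 2). After RBI2 it was 5446 ± 64.4 CPM at 10 min, 5320 ± 14.85 at 30 min and 5250 ± 39.6 at 120 min, and after CX-5461 it was 5638 ± 120 CPM at 10 min, 5890 ± 470 at 30 min and 5140 ± 312 at 120 min (SD, n = 2 each). The ratio of the highest to the lowest group mean was 1.15, and the ratio of control replicate 1 to replicate 2 was 1.17. At 10 and at 30 min both CX-5461 libraries were above both RBI2 libraries, and at 120 min the groups overlapped. The small subunit's share of the sum stayed between 34.6% and 35.4% in all 14 libraries. In bulk RNA of this kind, fewer cells that express a member and less of its RNA per cell cannot be told apart.

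Against the control, the members' medians and calls by the adjusted p were as follows. RBI2 at 10 min had a median log2 fold change of 0.07, with MRPL46 (0.37) and MRPS12 (0.36) highest and MRPL32 (-0.27) and MRPS9 (-0.26) lowest, and called 0 members with edgeR or DESeq2 (0.272% of all genes by edgeR; 3 members at an unadjusted p under 0.05, against 12.9% of all genes). RBI2 at 30 min had a median of 0.01, with MRPS12 (0.43) and MRPL12 (0.42) highest and MRPL32 (-0.35) and MRPS9 (-0.26) lowest, and called 0 members with edgeR (0.0843% of all genes; 6 members unadjusted, against 25.5% of all genes) and 1 with DESeq2 (6.37% of all genes by DESeq2). RBI2 at 120 min had a median of 0.01, with MRPL12 (0.41) and MRPL41 (0.33) highest and MRPL32 (-0.35) and MRPS9 (-0.32) lowest, all 4 short of the adjusted threshold. At an unadjusted p under 0.05, 9 members passed there, all lower, against 35.5% of all genes.

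CX-5461 at 10 min had a median of 0.12, with MRPS12 (0.46) and MRPL12 (0.44) highest and MRPL32 (-0.21) and MRPS30 (-0.18) lowest, and called 0 members with either tool (4.85% of all genes by edgeR; 1 member unadjusted, against 22.1% of all genes). CX-5461 at 30 min had the highest median of the 6, 0.18, with 63 of 78 members above 0, MRPS12 (0.67) and MRPL55 (0.65) highest and MRPS9 (-0.20) and MRPL32 (-0.16) lowest. It called 0 members with either tool, and edgeR called 0 of all genes (0%). At an unadjusted p under 0.05, 20 members (25.6%) passed, all higher, against 11.8% of all genes that passed higher and 22.5% in either direction. CX-5461 at 120 min had a median of -0.03, with MRPS12 (0.23) and MRPL12 (0.22) highest and MRPL32 (-0.32) and MRPS5 (-0.31) lowest, and called 0 members with either tool (0.0778% of all genes by edgeR; 7 members unadjusted, all lower, against 6.77% of all genes that passed lower and 11.6% in either direction). The tests of any difference among all 7 groups and among the 6 treated groups called 0 members each with edgeR, against 11.6% and 10.9% of all genes, and 5 members each at an unadjusted p under 0.05, against 34.0% and 30.1%. DESeq2 called 5 and 15 members, and 24.2% and 29.3% of all genes. MRPL35 had the smallest p in both (adjusted p = 0.072 and 0.064 by edgeR's quasi-likelihood test).

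The same few genes stood at the ends of several of these comparisons, and all 6 comparisons share the control libraries. MRPS12, related to the bacterial protein of the decoding centre, was at 65.6 CPM in control replicate 1 and 30.4 CPM in replicate 2, while the 12 treated libraries ran from 50.6 to 84.6 CPM. MRPL12, the homologue of the bacterial stalk protein L7/L12, was at 173.7 and 84.8 CPM in the control, against 141.7 to 213.1 CPM in the treated libraries. MRPL32 went the other way, at 64.6 CPM in replicate 1 and 81.9 CPM in replicate 2, against 53.0 to 65.9 CPM in the treated libraries. Without control replicate 2, MRPS12 was at -0.08, -0.02 and -0.18 for RBI2 at 10 and 30 min and CX-5461 at 120 min, and MRPL12 at -0.01 and -0.02 for RBI2 at 30 and 120 min and -0.18 for CX-5461 at 120 min (log2 fold changes). MRPL41 for RBI2 at 120 min (-0.0045), MRPS30 for CX-5461 at 10 min (0.02) and MRPL32 for CX-5461 at 30 min (0.02) also changed sign. MRPL46 for RBI2 at 10 min was then at 0.07, MRPS9 at -0.15 to -0.02 in its 4 comparisons, and MRPS12 and MRPL55 for CX-5461 at 30 min at 0.23 and 0.30. For CX-5461 at 10 min, MRPS12 and MRPL12 were then at 0.03 each. MRPL32 was then at -0.09, -0.17 and -0.18 for RBI2 at 10, 30 and 120 min. For CX-5461 at 10 and 120 min MRPL32 was at -0.02 and -0.12. In MRPS12, MRPL12 and MRPL32 control replicate 1 lay within or beside the treated libraries and replicate 2 outside them. Over all members the median log2 difference of control replicate 1 from replicate 2 was 0.24, with 59 of 78 members above 0 and a range from -0.37 to 1.11. It correlated with GC content (Pearson's r = 0.565 over 78 genes of the same 2 libraries, a description). Without control replicate 2, the medians against the control were -0.06, -0.10 and -0.11 for RBI2 at 10, 30 and 120 min and 0.02, 0.06 and -0.14 for CX-5461. Without control replicate 1, they were 0.14, 0.10 and 0.10 for RBI2 and 0.21, 0.25 and 0.10 for CX-5461, and 28, 29 and 31 members were called for RBI2 and 32, 43 and 19 for CX-5461, where 29.1%, 38.3%, 43.1%, 37.7%, 39.3% and 21.5% of all genes were called. For RBI2 at each time and CX-5461 at 120 min, the sign of the members' median thus turned with the control library used.

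The log2 fold changes of the members were set against their GC content. Pearson's r between a member's log2 fold change and its GC content (n = 78, all from the same libraries) was 0.461, 0.713 and 0.747 for RBI2 at 10, 30 and 120 min against the control, 0.593, 0.731 and 0.391 for CX-5461, and 0.553 for RBI2 against CX-5461 at 120 min. In RBI2 at 120 min against the control, the 26 members of lowest GC content (35.0% to 44.5%) had a median of -0.15, and the 26 of highest GC content (54.1% to 66.7%) had a median of 0.13. After the GC and length correction these medians were -0.01 and -0.12, and r was -0.365. Without control replicate 2, r was -0.158, 0.437 and 0.454 for RBI2 at 10, 30 and 120 min and 0.152, 0.7 and -0.3 for CX-5461, so that against the control the relation was weak or turned in RBI2 at 10 min and CX-5461 at 10 and 120 min. In RBI2 against CX-5461 at 120 min the corresponding medians were -0.07 and 0.11 before the correction and -0.09 in each after it, so the members' median there moved from 0.07 to -0.08. In the direct comparison at 30 min r was -0.174, with medians of -0.11 in the 26 members of lowest and -0.14 in the 26 of highest GC content, and a median of -0.10 over all members after the correction.

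**Figure D4:**
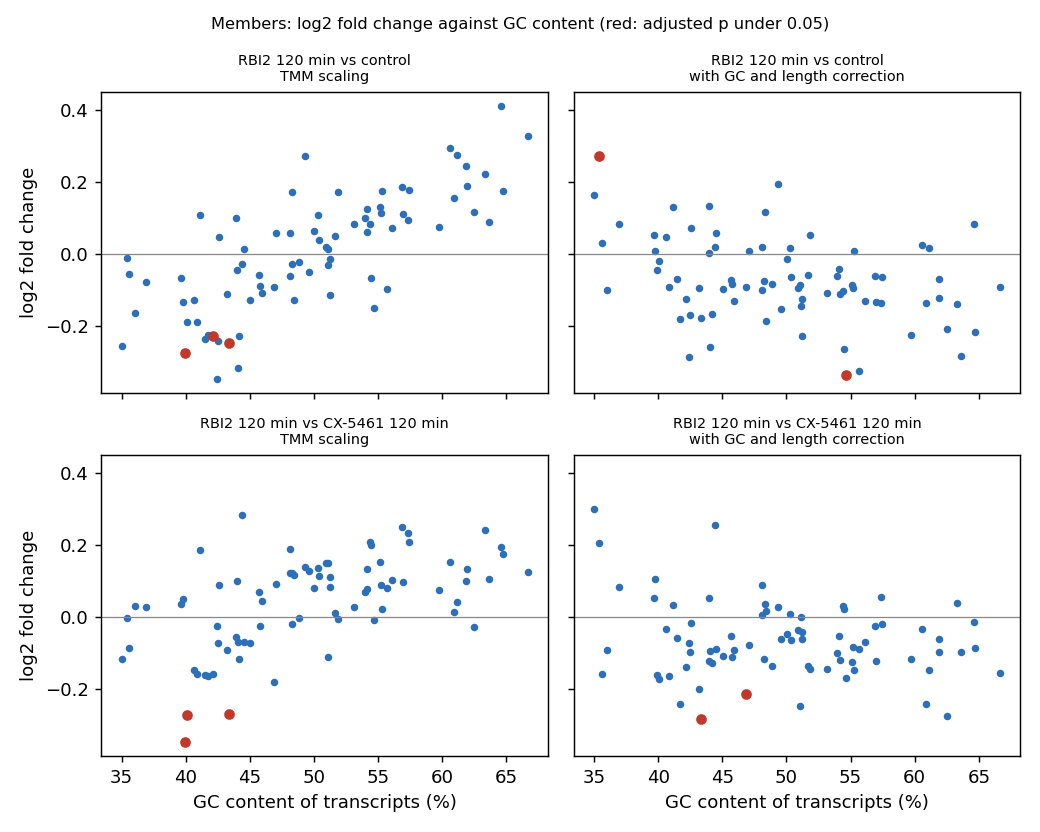
The log2 fold change of each member is plotted against the GC content of its transcripts in percent, for RBI2 120 min against the control (top) and against CX-5461 120 min (bottom), with TMM scaling (left) and with a GC and length correction (right). Red points passed an adjusted p under 0.05. The rise from low to high GC content on the left (r = 0.747 and 0.553) turned into a weaker fall on the right (r = -0.365 and -0.218).

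The members were also read by subunit and origin. For RBI2 at 120 min against the control the median log2 fold change was 0.06 over the 51 large-subunit genes and -0.04 over the 26 small-subunit genes. For CX-5461 at 30 min it was 0.19 and 0.12. In the direct comparison at 30 min it was -0.17 for the 30 large-subunit genes with a bacterial homologue, -0.13 for the 21 mitochondria-specific ones, -0.13 for the 16 small-subunit genes with a bacterial homologue and -0.08 for the 10 mitochondria-specific ones. These differences between classes were smaller than the range within each of them. In the 30 large-subunit genes with a bacterial homologue the log2 fold change at 30 min ran from -0.45 to -0.04, so that all of them were below 0.

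Levels were compared between genes per length, as TPM, which divides reads by transcript length. The median member had a mean of 85.1 TPM over the 14 libraries, where the median over all genes tested was 9.97 TPM and that over 82 cytosolic ribosomal protein genes was 1976 TPM. MRPL13 was the highest at 325.5 ± 52.0 TPM (SD, n = 14 libraries of 7 groups), followed by MRPL51 (263 ± 28.2), MRPL33 (251 ± 38.9), MRPL12 (213 ± 38.3) and MRPS18C (207.5 ± 15.1). The lowest were MRPL44 (26.1 ± 3.35 TPM), whose protein has a ribonuclease III fold, MRPS21 (26.65 ± 2.24), MRPS31 (27.6 ± 3.06), MRPL50 (27.7 ± 2.28) and MRPL57 (31.4 ± 4.10). The libraries of the 2 highest overlapped: MRPL13 ran from 187 to 413 TPM and MRPL51 from 185 to 298 TPM. MRPS31 shares sequence with pseudogenes, whose reads came to 20.3% of its own, so its level is uncertain.

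**Figure D5:**
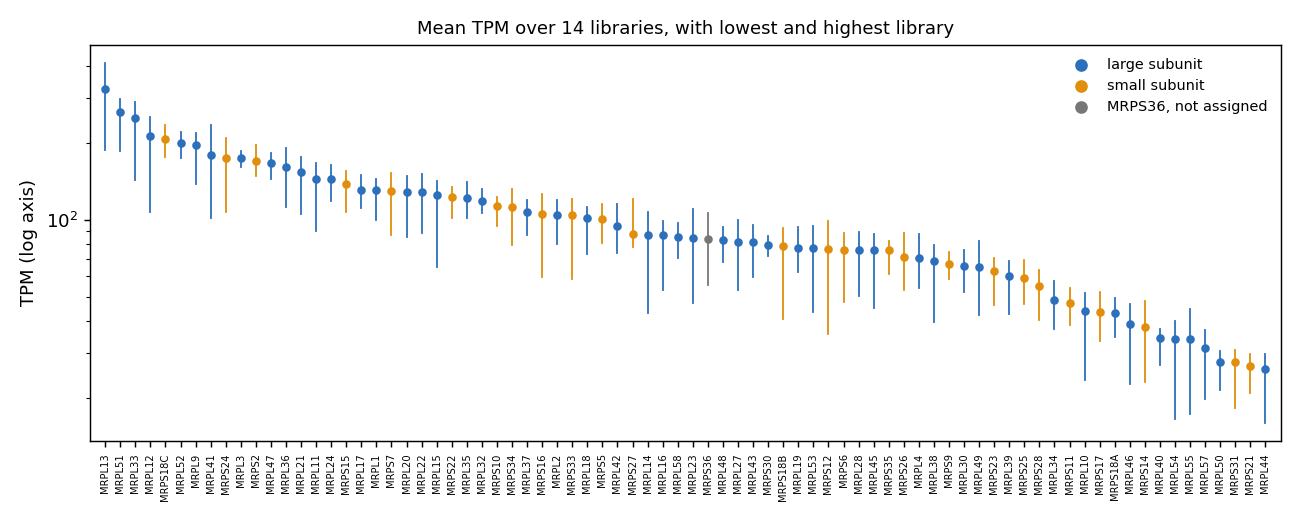
The mean TPM over 14 libraries is plotted on a log axis for each of the 78 members in order of level, coloured by subunit, with a line from the lowest to the highest library. Levels run from 325.5 TPM (MRPL13) to 26.1 TPM (MRPL44), and both subunits are spread over the range.

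Transcripts annotated as protein-coding took 83.2% to 87.3% of the members' reads. The lowest shares, 83.2% each, were those of control replicate 2 and RBI2 120 min replicate 2. In RBI2 at 120 min, retained-intron transcripts took 5.03% and 6.29% of the members' reads, against 4.0% to 5.28% in the other 12 libraries. In 67 members the transcript with most reads was a protein-coding one. In MRPL13 (44% of its reads) and MRPS18C (40.3%), both among the 5 highest by TPM, it was a retained-intron one, so their TPM levels include reads given to transcripts that are not annotated as coding. MRPL19's reads fell mostly (72.6%) on a transcript of 7825 bases, and MRPL35's mostly (63.7%) on one of 3723 bases. The mean transcript length per gene was 2386 bases in MRPL19 and 1395 bases in MRPL35, against a median of 1014 bases over the members. Reads of 17 members, MRPL19 among them, could be shared with a gene that overlaps on the same strand.

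Other genes that the mitochondrial ribosome depends on were read from lists, where 18.3% of all genes tested passed the adjusted p after RBI2 for 120 min against the control and 16.1% against CX-5461. Of 30 assembly factors of this ribosome, 2 passed against the control and 2 against CX-5461, in each case 1 in each direction and a share below that of all genes. FASTKD2, which binds the large ribosomal RNA of mitochondria, was at 49.9 and 51.1 CPM in the control and at 40.1 and 38.9 CPM after RBI2 for 120 min, a fall of 0.35 (log2 fold change -0.35, SE 0.070, adjusted p = 0.012 by edgeR's quasi-likelihood test). DHX30, an RNA helicase, was higher (0.41, adjusted p = 0.042) and turned to -0.08 with the GC and length correction, under which FASTKD2 was at -0.09 (adjusted p = 0.57), all by edgeR's quasi-likelihood test. Against CX-5461 at 120 min, FASTKD2 was lower (-0.32, adjusted p = 0.016) and the GTPase MTG2 higher (0.37, adjusted p = 0.037), of which MTG2 remained called with that correction (0.21, adjusted p = 0.043) and FASTKD2 did not (-0.05, adjusted p = 0.76, all by edgeR's quasi-likelihood test). Against the control, the call of FASTKD2 remained without control replicate 2 (-0.34) and that of DHX30 did not (0.20). The 5 mitochondrial ribosomal proteins with symbols outside the rule had 0 calls in any comparison by edgeR.

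Of 18 mitochondrial translation factors, 5 passed against the control (18.3% of all genes), 4 lower and 1 higher, and 5 passed against CX-5461 at 120 min (16.1% of all genes), again 4 lower and 1 higher. LRPPRC, which stabilises mitochondrial mRNAs, was at 321.2 and 406.6 CPM in the control, at 394.0 and 439.5 CPM after CX-5461 for 120 min and at 251.7 and 257.5 CPM after RBI2 for 120 min. It fell against the control (log2 fold change -0.52, SE 0.11, adjusted p = 0.016) and was lower than after CX-5461 (-0.71, SE 0.11, adjusted p = 0.0060, both by edgeR's quasi-likelihood test). Both calls remained with the GC and length correction (-0.27, adjusted p = 0.036, and -0.52, adjusted p = 0.0031 by edgeR's quasi-likelihood test). The elongation factors GFM1 (-0.55) and GFM2 (-0.51) and the initiation factor MTIF2 (-0.32) were lower than after CX-5461 with and without that correction, whereas against the control their calls (-0.40, -0.30 and -0.28) were lost with it. PDF, the peptide deformylase, rose against the control (0.93, SE 0.22, adjusted p = 0.021 by edgeR's quasi-likelihood test). The higher one against CX-5461 was the release factor homologue MTRFR (0.37, adjusted p = 0.044 by edgeR's quasi-likelihood test), which also fell after CX-5461 for 10 min (log2 fold change -0.58). With the GC and length correction PDF (0.70, adjusted p = 0.058) and MTRFR against CX-5461 (0.29, adjusted p = 0.067 by edgeR's quasi-likelihood test) were not called. Without control replicate 2 none of the 5 calls against the control remained, with LRPPRC at -0.34, PDF at 0.58, GFM1 at -0.25, GFM2 at -0.28 and MTIF2 at -0.23.

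Of 20 mitochondrial aminoacyl-tRNA synthetases, 4 passed after RBI2 for 120 min against the control (18.3% of all genes), with IARS2 (-0.38), WARS2 (-0.46) and RARS2 (-0.32) lower and AARS2 (0.56) higher. With the GC and length correction none of the 4 was called (-0.20, -0.27, -0.16 and 0.02 in that order), and without control replicate 2 the call of IARS2 remained (-0.34) and the others did not. Against CX-5461 at 120 min, IARS2 (-0.54) was also lower and AARS2 (0.49) also higher, of which IARS2 remained called with that correction (-0.37) and AARS2 did not (0.10). PARS2, the prolyl-tRNA synthetase, passed both limits after CX-5461 for 10 min against the control, where 1.67% of all genes did. It was at 2.99 and 3.27 CPM against 6.90 and 5.83 CPM in the control (log2 fold change -1.03, SE 0.15, adjusted p = 0.0032 by edgeR's quasi-likelihood test). Its log2 fold change was -0.94 without control replicate 1, short of the fold limit, and -1.13 without replicate 2. Of 12 genes of mitochondrial transcription and replication, 4 passed against the control (18.3% of all genes), with the helicase TWNK (0.45) and the RNA polymerase POLRMT (0.80) higher and TFAM (-0.24) and TFB2M (-0.41) lower. With the GC and length correction POLRMT remained called (0.34), and TWNK (0.22, adjusted p = 0.056), TFAM (-0.0017, adjusted p = 0.99) and TFB2M (-0.26, adjusted p = 0.20 by edgeR's quasi-likelihood test) did not. Against CX-5461 at 120 min, 3 of the 12 passed (16.1% of all genes), TWNK (0.47) higher and TFAM (-0.40) and TFB2M (-0.38) lower, of which TWNK remained called with that correction (0.27, adjusted p = 0.019) and TFAM (-0.21, adjusted p = 0.053) and TFB2M (-0.31, adjusted p = 0.11 by edgeR's quasi-likelihood test) did not. TWNK was also higher than after CX-5461 at 10 min (0.33) and over all times (0.29), both called with that correction too (0.26 and 0.18). The difference at 10 min was called in 7 of 24 alternatives, and that over all times in 22 of 23. Against the control, TWNK (0.45) and POLRMT (0.55) remained called without control replicate 2, and TFAM and TFB2M did not. Of 15 genes of the mitochondrial genome, 1 passed after RBI2 for 120 min against the control (18.3% of all genes). The median log2 fold change of the 15 was -0.65 there. It was -0.65 to -1.03 in all 6 treated groups against the control, and 0.31 for RBI2 against CX-5461 at 120 min. Summed over all genes of the mitochondrial chromosome, the level was 94990 CPM in control replicate 1 and 234900 CPM in replicate 2, and 93220 and 115200 CPM after RBI2 for 120 min, so that control replicate 1 lay between the sums of the RBI2 libraries and replicate 2 above both. The gene that passed, the mitochondrial 12S ribosomal RNA gene MT-RNR1, was at 724 and 885 CPM in the control and at 2475 and 3270 CPM after RBI2 for 120 min, a rise of 1.84 (SE 0.23, adjusted p = 0.0032 by edgeR's quasi-likelihood test), in libraries made from poly(A) RNA. Its log2 fold change was 1.64 without control replicate 1 and 1.98 without replicate 2. MT-RNR1 was also higher than after CX-5461 for 120 min (2.04, adjusted p = 0.0040 by edgeR's quasi-likelihood test), where 16.1% of all genes passed. MT-CYB passed both limits after CX-5461 for 10 min against the control (-1.68, adjusted p = 0.0078 by edgeR's quasi-likelihood test), where 1.67% of all genes did. Without control replicate 2 MT-CYB was at -0.93, short of the fold limit.

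Among 9 regulators known for genes of mitochondrial proteins, 5 passed after RBI2 for 120 min against the control (18.3% of all genes). MYC (-0.41), GABPA (-0.68) and GABPB1 (-0.37) were lower and PPRC1 (0.38) and PPARGC1B (0.63) higher. MYC was at 180.1 and 187.4 CPM in the control, at 132.6 and 144.4 CPM after RBI2 for 120 min and at 35.2 and 32.1 CPM after CX-5461 for 10 min (log2 fold change -2.45, SE 0.075, adjusted p = 3.01e-08 by edgeR's quasi-likelihood test). After CX-5461 for 120 min it was at 118.5 and 122.3 CPM, also lower than in the control (-0.61, SE 0.070, adjusted p = 0.011 by edgeR's quasi-likelihood test, where 0.0778% of all genes passed). NRF1 (-0.51) and GABPB1 (-0.48) also fell after CX-5461 for 10 min, which made 3 of the 9, where 4.85% of all genes passed. At 10 min of CX-5461 the members' median was 0.12 and none was called by the adjusted p. With the GC and length correction the call of MYC remained in each of these comparisons. Those of NRF1 (-0.42) and GABPB1 (-0.31) after CX-5461 for 10 min also remained. The calls of GABPA, GABPB1, PPRC1 and PPARGC1B after RBI2 for 120 min against the control did not. Against CX-5461 at 120 min, 2 of the 9 passed (16.1% of all genes), GABPA lower (-0.81), which remained called with that correction (-0.38), and PPRC1 higher (0.32), which did not (0.07). Without control replicate 2, MYC, GABPA (-0.59) and PPRC1 (0.48) remained called after RBI2 for 120 min, whereas PPARGC1B (0.78) and GABPB1 (-0.20) did not, nor did NRF1 (-0.54) and GABPB1 (-0.29) after CX-5461 for 10 min. Without control replicate 1, PPRC1 (0.22, adjusted p = 0.055) and PPARGC1B (0.42, adjusted p = 0.17 by edgeR's quasi-likelihood test) were not called after RBI2 for 120 min.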

How the data were processed

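Poly(A) RNA of MDA-MB-231 cells was sequenced from strand-specific libraries in 7 groups of 2 replicates. The authors removed reads that aligned to ribosomal DNA and quantified transcripts on GRCh38 with Salmon, and the deposited values used here are the estimated counts per transcript and the TPM of each library. Their processing notes name STAR 2.7.6a, SAMtools 1.11, bedtools 2.29.2, Salmon 1.3.0 and DESeq2 1.28.1. Salmon divides reads among transcripts that share sequence, which makes the levels of overlapping genes and of copies estimates.

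Of 228754 transcripts, 225662 matched GENCODE 44 by identifier, and those not matched held 1.03% to 1.13% of the reads. Estimated counts were summed per gene and rounded to whole numbers. Genes that passed filterByExpr with a minimum count of 10 were scaled by TMM and fitted in 1 model over all 14 libraries with edgeR 4.0.16 and limma 3.58.1 (R 4.3.3), by the quasi-likelihood F test with Benjamini-Hochberg adjustment over all genes tested. The comparison over all times was fitted on the 12 treated libraries. A gene was called at an adjusted p under 0.05, alone or with a log2 fold change of 1 or more in size. CPM are on the TMM scale.

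The test was tested on simulated data made for CX-5461 at 10 min against the control (15027 genes). It called 17.4% of genes changed by 0.5, 93.2% of those changed by 1 and 100% of those changed by 2 on the log2 scale. The simulation gave every gene the same spread and did not set control replicate 2 apart, as it stood in the data. These shares are thus not the shares that the real comparisons with the control would detect. Depth was 14112299 to 24849354 estimated reads. The fitted spread between libraries, a common coefficient of variation of 12.1%, does not include counting error, which the model adds to it.

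Alternatives were DESeq2 1.42.0, its size factors, upper quartile scaling, no filter, genes of the mitochondrial genome left out of the scaling, a length offset, a correction for GC content and length per library, only the 4 libraries of a comparison, a replicate block, an unadjusted p with the fold limit, and each library left out. Members named are those called, the 2 highest and 2 lowest log2 fold changes of each comparison, the 5 highest and 5 lowest mean TPM, and those with the smallest p in the tests of any difference. The members and the gene lists were chosen with earlier results of these data known. Promoter sequences are from RefSeq. A result of the aminoacyl-tRNA synthetase list is not reported here.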

Additional observations from a re-analysis of the deposited data

Results flagged for a closer look

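The effects of the 2 compounds at 120 min differed in 3 of 78 members (3.85%), against 16.1% of all genes tested. The direct comparison of RBI2 with CX-5461 at 120 min is the test of this difference, because both effects are taken against the same control. The log2 difference was -0.348 for MRPL19, -0.2705 for MRPL35 and -0.2723 for MRPS35, each called by edgeR's quasi-likelihood test. In each gene both RBI2 libraries were below both CX-5461 libraries, which held for 14.1% of members and 28.6% of all genes tested. The 3 genes were chosen by this same comparison, so that separation adds no support. With the GC and length correction the call remained for MRPL35 and not for MRPL19 or MRPS35. The part of GC content in these differences was not tested further.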

How the results depend on the processing

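The log2 fold changes of the called members kept their sign under all 24 alternatives, while the number of calls moved and the cause was not tested. In the order RBI2 30 min, RBI2 120 min, the direct comparison at 120 min, any difference among 7 groups, among 6 treated groups, and over all times, DESeq2 called 1, 7, 5, 5, 15 and 2 members by the adjusted p alone (of all genes, 6.37%, 21.2%, 17.3%, 24.2%, 29.3% and 12.3%). Its size factors in edgeR gave 6 for RBI2 120 min, 1 among 6 treated groups and 2 over all times (19.3%, 11% and 8.5% of all genes). Without the filter, there were 5 for RBI2 30 min, 3 for CX-5461 10 min, 14 for CX-5461 30 min, 1 each for the direct comparisons at 30 and 120 min, 9 and 5 for any difference, and 2 over all times (in that order 6.7%, 6.78%, 6.25%, 1.06%, 8.49%, 17.2%, 12.9% and 7.4% of all genes). A length offset gave 0 for RBI2 120 min, 1 for the direct comparison at 120 min and 2 over all times (1.4%, 6.55% and 9.38%). Fits on the 4 libraries compared, without the others, gave 0 for RBI2 120 min and 1 for the direct comparison at 10 min (0% and 10.6%), and with mitochondrial genes left out of the scaling 2 over all times (8.53%). The correction for GC content and length gave 7 and 9 for any difference and 24 over all times (15.8%, 16.1% and 21.1%), and moved the members' median to -0.0856 for RBI2 120 min against the control and -0.0847 for the direct comparison at 120 min. With it DHX30 turned to -0.0765 after RBI2 for 120 min, and with the length offset RPL9 turned to 0.0983 there (log2 fold changes against the control). The GC and length correction also put MRPL53 at -0.0255 in the direct comparison at 120 min. It put MRPL41 at -0.0919 for RBI2 120 min against the control. Both were above 0 without it.

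Same-numbered deviations of the replicates correlated between -0.18 and 0.18, with 3 of 21 pairs of groups over 0.1, so no strong shared effect of the replicate number was seen. Whether the samples were prepared in pairs cannot be told from these correlations or from the labels. The replicate block called 3 members for RBI2 120 min against the control, 3 for the direct comparison at 120 min (16.3% and 14.6% of all genes) and 0 elsewhere. The block with the GC and length correction called 1 for CX-5461 10 min, 3 and 7 for any difference and 20 over all times (8.04%, 14.4%, 14.9% and 18.8% of all genes), with medians of -0.0847 and -0.0845 in those comparisons at 120 min and DHX30 at -0.07615.

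With 1 library left out, members past both limits numbered 0 to 1 for RBI2 30 min, 0 to 2 for CX-5461 10 min and 0 to 3 for CX-5461 30 min, with all calls made without control replicate 1. By the adjusted p alone they numbered 0 to 28, 0 to 29 and 0 to 31 for RBI2 at 10, 30 and 120 min, 0 to 32, 0 to 43 and 0 to 19 for CX-5461, 0 to 9 for the direct comparison at 120 min, 0 to 38 and 0 to 16 for any difference, and 0 to 3 over all times (in the last 4, 27.8%, 52.4%, 33.6% and 6.12% of all genes in the fit with the highest count). The medians ran from -0.0582 to 0.14, -0.10 to 0.10 and -0.11 to 0.10 for RBI2, from 0.0232 to 0.21, 0.057 to 0.25 and -0.14 to 0.10 for CX-5461, and from -0.0856 to -0.035, -0.25 to -0.0747 and -0.0171 to 0.0671 for the direct comparisons at 10, 30 and 120 min. By TPM the summed level was 7134 ± 1775 in the control (SD, n = 2), with replicates at 8389 and 5879. The means of the treated groups ran from 7721 to 8584 TPM, so the control was the lowest group by TPM and CX-5461 at 120 min by CPM. Relative to the mean of groups, the summed level was 1.03 by TPM for RBI2 at 10 and at 30 min. For RBI2 at 30 min it was 0.978 with size factors, 0.992 with upper quartile scaling and 0.979 without mitochondrial genes, and for RBI2 at 120 min 0.959 with size factors. The small subunit's share by TPM was 30.8% in the control, 29.7%, 29.69% and 29.99% for CX-5461 and 30.12%, 30.49% and 29.47% for RBI2 at 10, 30 and 120 min. In data simulated for CX-5461 at 10 min against the control, a change of 0.5 on the log2 scale was called in 17.4% of the changed genes. That simulation used 1 spread for all genes and control replicates that were no further apart than others.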
